A study of Rattus norvegicus with 43 samples.

Results

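Folate-deficient and folate-sufficient A7r5 cells were compared after 21 days of culture. A7r5 is an established smooth muscle line from rat aorta. Arrays were chosen by the folic acid and the day in their labels, which gave 10 of 43 arrays, 5 in deficient and 5 in sufficient medium. Deficient medium held 2.5 ng/ml folic acid and sufficient medium 10 ng/ml, both in a custom-made DMEM, and the same line grew at 100 ng/ml, called excess, and was also sampled at days 7 and 14. RNA was labelled with a kit that primes at the 3′ end of the message and hybridised to Affymetrix Rat230_2 arrays. The values are log2 expression after GCRMA, so a difference of 1 is a doubling. As a model, the cells are 1 clonal line without other vessel cells. Each p-value rests on the spread within groups, pooled over all 43 arrays. Since the labels name no separate cultures, that spread could be technical.

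Folates carry the single carbon units that cells use to build purines and thymidylate, to interconvert serine and glycine, and to remethylate homocysteine to methionine. A shortage of amino acids or of mitochondrial one-carbon units is among the triggers of the integrated stress response, in which the transcription factor ATF4 and its partners induce Ddit3, Trib3 and enzymes of serine, asparagine and folate metabolism. In the vessel wall, smooth muscle cells hold the contractile proteins and secrete most of the elastic and collagenous matrix.

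The labelled cell type was checked first. All 10 smooth muscle markers were measured above the filter, and their mean log2 level was 11.25 to 11.27 in deficient arrays and 11.21 to 11.54 in sufficient arrays. Tagln, an actin-binding protein of smooth muscle, averaged 14.33 in deficient medium and 14.27 in sufficient medium. Markers of endothelial cells averaged 2.93 to 3.00 in deficient and 2.88 to 3.02 in sufficient arrays, and those of macrophages 2.74 to 2.85 and 2.75 to 2.87. Both set means lay close to background, though Flt1 of the endothelial list had 5.14 in deficient and 5.03 in sufficient medium. Cd14 of the macrophage list had 5.88 and 5.73. Fibroblast markers averaged 6.90 to 6.94 in deficient and 6.89 to 7.03 in sufficient arrays, with Col1a1 at 13.38 and 13.52. This list was split, with 6 of 11 members above the filter. Pdgfra had 2.81 in deficient and 2.71 in sufficient medium, and Dcn 2.21 and 2.26, all near background. Krt8 of the epithelial list had 9.00 and 8.88, but only 2 of 10 members of that list were above the filter. Cdh1 had 2.42 in both media, and Epcam 2.06 and 1.97. Pecam1, the endothelial adhesion molecule, had 2.58 in both media, and Ptprc, the leukocyte phosphatase CD45, had 2.39 in deficient medium and 2.51 in sufficient medium. Skeletal muscle markers, 7 of 12 above the filter, averaged 5.62 to 5.69 in deficient and 5.30 to 5.46 in sufficient arrays, and these ranges did not overlap, in part through Myh3 and Myh2, which are among the genes that rose. The arrays agreed closely, with correlations of 0.998 among deficient arrays and 0.996 to 0.998 among sufficient arrays. Sufficient replicate 1 stood apart, with a root mean square deviation from its group of 0.232, against 0.125 to 0.141 for the deficient and at most 0.15 for the other sufficient arrays. The signal of 3′ minus 5′ control probe sets varies with RNA quality. For GAPDH it was 0.407 in sufficient replicate 1, against 0.176 to 0.256 in the other arrays compared. For actin that array had 1.564, within the range of the others. Of the sufficient arrays, 2 (replicates 2 and 6) carry serial numbers above 45 in their titles, a possible separate array series, while 0 deficient arrays do.

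A total of 71 genes differed, 37 higher and 34 lower in deficient medium, in a limma fit over 9093 genes. That is 0.781% of the genes tested, the share to set beside the list counts that follow. No list held more than 40 tested genes, so a count of 0 or 1 does not set a list apart. Most changes were small. Their median size was 0.40 and the smallest 0.21 on the log2 scale, and 13 reached 1.5-fold, 7 higher and 6 lower. In 63 of the 71 the deficient and sufficient values did not overlap, which held for 4.39% of all genes tested. At an unadjusted p below 0.05 there were 1118 genes. The genes with the biggest rises were Trib3, Myh2, Myh3, Ddit3, Gadd45a, Tfrc and Spc24, and Txnip and Arhgap20l1 had the deepest falls. Without sufficient replicate 1, 41 genes passed, 37 of them among the 71. All 71 kept their sign in that and in every other setting that measured them, and a stricter filter on low values left 67 of them to measure. As these genes were chosen in the same arrays, stable signs follow largely from the choice. Of the named called genes, 25 lost their call when 1 of the 10 arrays was left out, 17 of them without sufficient replicate 1. The number of such arrays is given with each of the genes it bears on most. In bulk RNA, fewer cells expressing a gene and less of its RNA per cell cannot be told apart.

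**Figure D1:**
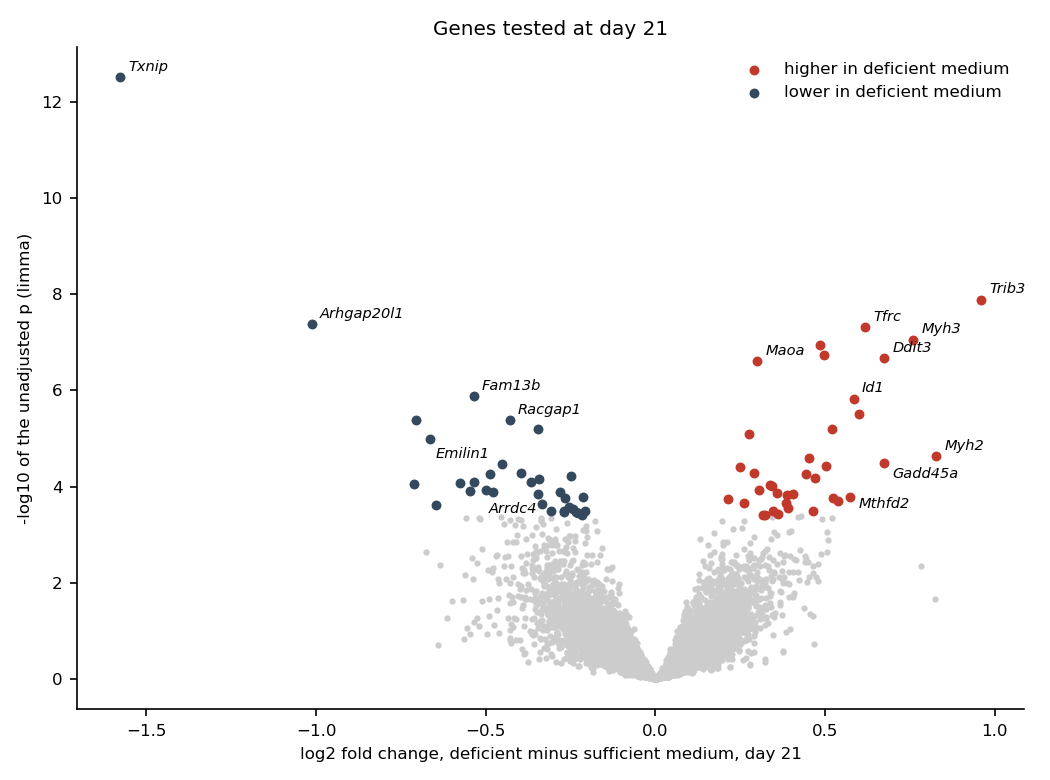
Each point is 1 of 9093 genes at day 21, with the log2 fold change of deficient minus sufficient medium on the x axis and the −log10 of the unadjusted limma p on the y axis. Red points are the 37 genes higher and dark points the 34 genes lower in deficient medium at adjusted p below 0.05, and Txnip stands alone at the left with −1.58.

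Txnip encodes an alpha-arrestin that restrains glucose uptake and binds thioredoxin. Its log2 level in the deficient arrays was 5.84, 5.81, 5.95, 5.70 and 6.06, against 7.49, 7.44, 7.68, 7.47 and 7.17 in the sufficient arrays. Every deficient array lay more than 1 unit below every sufficient array. The difference was −1.58 ± 0.14 (SE, n = 5 and 5), or 2.98-fold lower (adjusted p = 2.8e-09 in limma). The errors of all later differences are SEs too, and each SE uses the spread pooled over all 43 arrays. Arrdc4, the related alpha-arrestin that shares the glucose-sensing transcription factor MondoA with Txnip as a known regulator, sat near background at 3.80 ± 0.18 in deficient and 4.31 ± 0.13 in sufficient medium (SD). Its 2 groups did not overlap, but the difference of −0.52 ± 0.13 missed the threshold (adjusted p = 0.051 in limma), which it passed in 6 of 21 other settings. Among 26 tested genes of glucose uptake, glycolysis and hypoxia, Txnip was the 1 past the threshold. The glucose transporter Slc2a1 differed by 0.26 ± 0.11 (adjusted p = 0.28) and the glycolytic enzyme Pgk1 by 0.13 ± 0.04 (adjusted p = 0.092), both without overlap, and the list median was 0.05 against −0.01 for all genes.

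Of 24 tested members of the integrated stress response, 6 rose in deficient medium (Ddit3, Trib3, Gadd45a, Mthfd2, Psat1 and Slc3a2) and 1 fell (Nupr1), 19 had a positive sign, and the median was 0.18. By comparison, 0.407% of all genes were called higher and 0.374% lower. An earlier look at these arrays had already shown this list, so its count is a description. Without sufficient replicate 1, 2 members rose and 0 fell, and the median was 0.23.

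Trib3, a pseudokinase that inhibits AKT and is induced by ATF4 and CHOP, had log2 levels of 8.62, 8.96, 8.75, 8.80 and 8.76 in deficient arrays and 7.96, 7.98, 7.90, 7.65 and 7.6 in sufficient arrays. The groups were well apart, and Trib3 rose by 0.96 ± 0.13, or 1.95-fold (adjusted p = 5.9e-05 in limma). Ddit3, which encodes CHOP, was at 9.83, 9.91, 9.94, 10.08 and 10.05 in deficient arrays, against 9.34, 9.10, 9.27, 9.38 and 9.34 in sufficient arrays. All deficient values exceeded all sufficient values, with a rise of 0.67 ± 0.11 (adjusted p = 0.00024). Gadd45a, a growth arrest and DNA damage gene that is a target of p53 as well as of ATF4, had 10.90, 11.00, 10.82, 10.99 and 10.98 in deficient arrays and 9.97, 10.12, 10.31, 10.36 and 10.56 in sufficient arrays. The sufficient arrays were spread more widely, and the lowest of them was the replicate 1 that stood apart. The rise was 0.67 ± 0.14 (adjusted p = 0.014), and 0.60 without that array (adjusted p = 0.056 in limma).

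Nupr1, a small stress-induced chromatin protein, went the other way. It averaged 11.74 ± 0.10 in deficient arrays and 11.96 ± 0.05 in sufficient arrays (SD), a fall of 0.22 (adjusted p = 0.050 in limma) that was not called when any 1 of 9 of the arrays was left out. Atf4 mRNA was 11.70 to 11.77 in deficient arrays and 11.43 to 11.66 in sufficient arrays, without overlap, and its difference of 0.19 ± 0.07 did not pass (adjusted p = 0.18). Chac1, a glutathione-degrading enzyme downstream of ATF4, differed by 0.38 ± 0.13 (adjusted p = 0.2) and also did not overlap. Herpud1, a membrane protein of endoplasmic reticulum protein degradation, differed by 0.21 ± 0.06 (adjusted p = 0.097). Atf3, a repressor of the same family, was not tested, as its 2.37 in deficient arrays and 2.35 in sufficient arrays lay below the filter.

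Endoplasmic reticulum chaperones did not share this pattern of signs. Of 22 tested, 0 rose and 1 fell, with a median of −0.02. Hspa5, the chaperone BiP, differed by −0.01 ± 0.05 (adjusted p = 0.93), and Sdf2l1, a component of the chaperone complex, fell by 0.45 ± 0.10 (adjusted p = 0.014) with overlapping groups and was not called without sufficient replicate 1 (adjusted p = 0.066) or without deficient replicate 5. Of 19 aminoacyl-tRNA synthetases, which charge tRNAs with amino acids, 0 passed, 15 had a positive sign and the median was 0.09. The nearest to the threshold was Yars1, the tyrosyl enzyme, at 0.23 ± 0.06 (adjusted p = 0.069).

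The promoters of Trib3 and Nupr1 are shown because they are the only 2 among 62 promoters of the called genes that hold the core of the C/EBP-ATF response element (TGATGNAA, searched on both strands). Sequences are the 250 bases before the annotated start from RefSeq, build GRCr8, read along each gene's minus strand, at chr3:161275534-161275783 for Trib3 and chr1:190645902-190646151 for Nupr1. Capitals mark the motif matches.
Trib3: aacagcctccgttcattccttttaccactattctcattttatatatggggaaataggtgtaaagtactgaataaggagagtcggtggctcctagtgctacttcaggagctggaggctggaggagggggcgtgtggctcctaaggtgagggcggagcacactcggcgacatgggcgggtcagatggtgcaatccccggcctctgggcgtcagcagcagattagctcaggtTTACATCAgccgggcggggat
Nupr1: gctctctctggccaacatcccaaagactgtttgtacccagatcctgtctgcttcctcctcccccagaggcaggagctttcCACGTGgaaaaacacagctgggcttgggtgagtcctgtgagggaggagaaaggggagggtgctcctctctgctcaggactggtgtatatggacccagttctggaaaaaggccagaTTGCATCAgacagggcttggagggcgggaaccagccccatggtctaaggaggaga
In Trib3 the match reads TTACATCA, the reverse complement of the searched letters, and begins at position −21 from the start. In Nupr1 it reads TTGCATCA and begins at −55, and an E-box, CACGTG, begins at −170. The core was in 3.2% of the called genes' promoters and in 1.7% of 7694 promoters of tested genes. The E-box was in 8.1% of the called genes' promoters and 8.9% of all, the NF-Y box CCAAT in 35.5% and 36.7%, the cell cycle homology letters TTTGAA in 8.1% and 10.0%, and the cyclic AMP response element TGACGTCA in 0 of 62 and 3.3%. These matches describe the letters only, and the 2 genes with the core had opposite signs.

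Within folate metabolism 1 of 15 tested genes passed, beside 0.781% of all genes tested. Mthfd2, the mitochondrial dehydrogenase and cyclohydrolase that helps deliver one-carbon units as formate, had 7.52, 7.76, 7.60, 7.71 and 7.83 in deficient arrays, against 7.12, 7.23, 7.13, 7.03 and 7.04 in sufficient arrays. The groups did not overlap, and the rise was 0.57 ± 0.14, or 1.49-fold (adjusted p = 0.031 in limma). The call was lost when any 1 of 8 of the 10 arrays was left out, with a largest adjusted p of 0.087 and, without sufficient replicate 1, a size of 0.58. Of the other mitochondrial enzymes, Shmt2, which cleaves serine, differed by 0.26 ± 0.13 (adjusted p = 0.41), and Mthfd1l, which releases formate, by 0.17 ± 0.15 (adjusted p = 0.72).

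Genes of the cytosolic and uptake steps were not called in the fit of all arrays, though Slc19a1 passed with array weights (adjusted p = 0.023 in limma) and Shmt1 with the array series as a covariate (adjusted p = 0.033). Slc19a1, the reduced folate carrier, averaged 4.41 ± 0.13 in deficient arrays and 4.11 ± 0.20 in sufficient arrays (SD), a difference of 0.30 ± 0.11 (adjusted p = 0.21) near the filter limit of 4. The folate receptor Folr1 differed by 0.03 ± 0.11 and Shmt1, the cytosolic serine hydroxymethyltransferase, by 0.23 ± 0.09. Tyms, thymidylate synthase, differed by −0.05, with a 95% interval of −0.34 to 0.24, and Mthfd1, the cytosolic trifunctional enzyme, by 0.04, with an interval of −0.10 to 0.18. Those 2 intervals do not reach the Mthfd2 rise of 0.57, whose own interval was 0.30 to 0.85. The intervals of Shmt2, Slc19a1, Mthfd1l and Shmt1 reached up to 0.53, 0.52, 0.47 and 0.41, inside that of Mthfd2. Whether Mthfd2 differed from these genes was not tested. Mtr, methionine synthase, had 3.22 in deficient arrays and 3.10 in sufficient arrays, below the filter.

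In serine and asparagine synthesis 9 of 9 tested genes had a positive sign, 2 of them were called, and the median was 0.17. Over all genes 0.407% were called higher and the median was −0.01. Psat1, the aminotransferase of serine synthesis, rose by 0.29 ± 0.06 (adjusted p = 0.018), and Psph, the phosphatase that ends the pathway, by 0.36 ± 0.09 (adjusted p = 0.050). Phgdh, the first enzyme, differed by 0.14 ± 0.12 (adjusted p = 0.7) and Asns, asparagine synthetase, by 0.23 ± 0.07 (adjusted p = 0.15). Neither passed without sufficient replicate 1 (Psat1 adjusted p = 0.071 and Psph adjusted p = 0.076 in limma), and in all Psat1 was lost in 3 and Psph in 9 of 10 such omissions. Slc3a2, the heavy chain shared by several amino acid exchangers, rose by 0.26 ± 0.06 (adjusted p = 0.037, lost in 8 of 10 omissions), and the glutamate transporter Slc1a3 fell by 0.27 ± 0.07 (adjusted p = 0.046, lost in 7) with overlapping groups. Of 13 methionine cycle and transsulfuration genes and 20 purine and pyrimidine synthesis genes 0 passed, with a median of 0.04 in each.

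**Figure D2:**
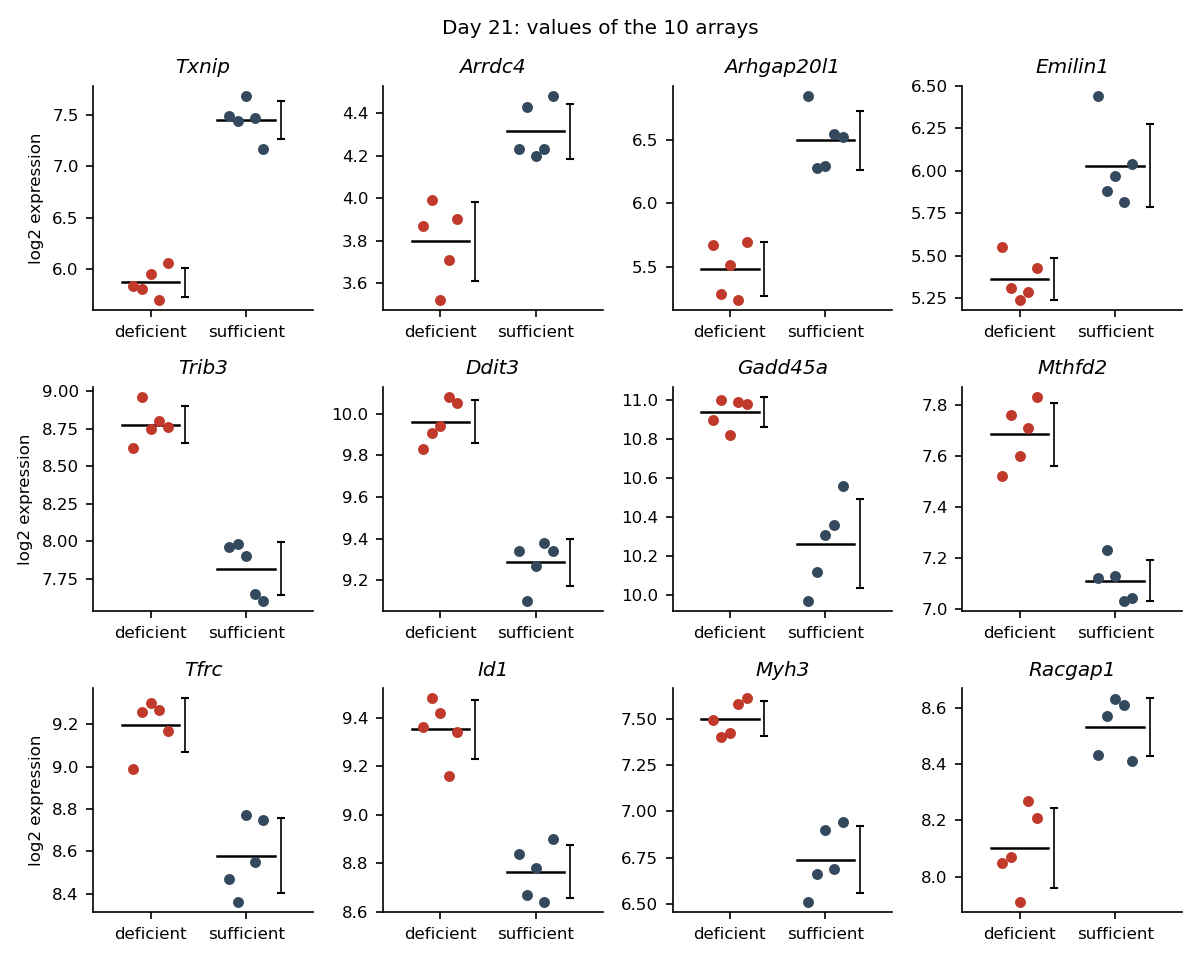
Log2 expression of 12 genes in the 5 deficient (left, red) and 5 sufficient arrays (right, dark) of day 21, with 1 point per array, the mean as a line and the SD as a bar. Arrdc4 is the only one of the 12 not past the threshold, and the groups overlap in 0 of the 12. The genes were picked with their results known, so the separation follows from the choice. Over all genes tested, 4.39% had no overlap.

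Of 33 tested genes of mitosis, 30 had a negative sign and the median was −0.21, with 2 past the threshold, both lower in deficient medium. Over all genes 0.374% were called lower and the median was −0.01. Without sufficient replicate 1, 1 mitosis gene was called lower and the list median was −0.19. Racgap1, a GTPase-activating protein of the central spindle needed for cytokinesis, was at 8.05, 8.07, 7.91, 8.27 and 8.21 in deficient arrays and 8.43, 8.57, 8.63, 8.61 and 8.41 in sufficient arrays. The values did not overlap, and it fell by 0.43 ± 0.08 (adjusted p = 0.0027 in limma). With the mean of its 2 probe sets the difference was −0.39 and was not called (adjusted p = 0.07). Aurka, a spindle pole kinase, had 5.62, 5.28, 5.16, 4.93 and 5.60 in deficient arrays and 5.81, 5.98, 5.82, 5.75 and 5.73 in sufficient arrays. Its spread was wider in deficient medium, and it fell by 0.50 ± 0.12 (adjusted p = 0.028), a call lost in 7 of 10 omissions of single arrays (adjusted p = 0.056 without sufficient replicate 1).

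Others in the list that missed the threshold included Kif20a at −0.46 ± 0.17, Cdc20 at −0.39 ± 0.13 and Pttg1, securin, at −0.39 ± 0.13. Kif20a is a kinesin of cytokinesis, and Cdc20 switches on the anaphase-promoting complex. The core cyclin-dependent kinase Cdk1 differed by −0.04 ± 0.07. Spc24, a subunit of the kinetochore NDC80 complex, was outside the list and rose by 0.60 ± 0.11 (adjusted p = 0.0024), with 6.99 ± 0.15 in deficient arrays and 6.39 ± 0.24 in sufficient arrays (SD). DNA replication genes had 0 of 31 past the threshold and a median of −0.04, and Mcm7, a helicase subunit, came nearest at −0.29 ± 0.08 (adjusted p = 0.068).

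Of 17 p53 target and growth arrest genes only Gadd45a passed. Cdkn1a, the cell cycle inhibitor p21, was at 9.99 to 10.26 in deficient arrays and 10.04 to 11.67 in sufficient arrays, with the highest value in replicate 1, and its difference of −0.54 ± 0.28 did not pass (adjusted p = 0.45). Its 2 probe sets disagreed in sign. Ezh2, the histone methyltransferase of the Polycomb complex, fell by 0.37 ± 0.08 (adjusted p = 0.022, lost in 4 of 10 omissions) and was the 1 called among 26 DNA and histone methylation genes. Msh6, a mismatch repair protein, rose by 0.21 ± 0.05 (adjusted p = 0.033), the 1 called among 24 repair genes. The call of Msh6 was lost in 7 of 10 omissions, with a largest adjusted p of 0.14 without sufficient replicate 1.

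Of 40 extracellular matrix genes, 32 had a negative sign and 1 was called, with a median of −0.15. By comparison, 0.374% of all genes were called lower, and the median of all genes was −0.01. Emilin1, an elastic fibre glycoprotein that also limits TGF-beta processing, had 5.55, 5.31, 5.24, 5.29 and 5.43 in deficient arrays and 6.44, 5.88, 5.97, 5.82 and 6.04 in sufficient arrays. The groups were apart, and Emilin1 fell by 0.67 ± 0.13, or 1.59-fold (adjusted p = 0.0052 in limma). Col3a1, a fibrillar collagen of the vessel wall, differed by −0.43 ± 0.11 (adjusted p = 0.053) and Loxl1, an elastin cross-linking enzyme, by −0.20 ± 0.06 (adjusted p = 0.074). The main fibrillar chains Col1a1 and Col1a2 differed by −0.14 ± 0.17 and 0.00 ± 0.07. The 1 matrix call was also 1 without sufficient replicate 1, 2 after a further quantile normalization, 3 in serials up to 45 and 5 with the array series above 45 as a covariate. With that covariate 167 of all 9093 genes were called lower, against 34 without it. Mgp, an inhibitor of vascular calcification, differed by −0.24 ± 0.13 (adjusted p = 0.43) without overlap. Of 7 calcification genes 0 passed, 5 had a positive and 2 a negative sign, and the median was 0.14.

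Smooth muscle contractile genes gave 0 calls among 23, with a median of −0.01. Acta2, smooth muscle actin, differed by −0.12 ± 0.17 (adjusted p = 0.84), Myh11, smooth muscle myosin, by −0.12 ± 0.11 (adjusted p = 0.71) and Tagln by 0.06 ± 0.05 (adjusted p = 0.64). Of 21 tested skeletal and cardiac muscle genes, 2 rose, 1 fell and 18 did not pass, with a median of 0.08. Among all genes tested, 0.407% were called higher and 0.374% lower. Myh3, embryonic skeletal myosin heavy chain, was at 7.49, 7.40, 7.42, 7.58 and 7.61 in deficient arrays, against 6.51, 6.66, 6.90, 6.69 and 6.94 in sufficient arrays. The groups were separate, and Myh3 rose by 0.76 ± 0.12, or 1.69-fold (adjusted p = 0.00016 in limma).

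Myh2, a fast skeletal myosin, had 6.70, 6.38, 6.65, 6.53 and 7.23 in deficient arrays and 5.54, 5.50, 5.88, 6.02 and 6.42 in sufficient arrays. One sufficient array lay above the lowest deficient array, and the rise was 0.83 ± 0.17 (adjusted p = 0.011), or adjusted p = 0.058 without deficient replicate 6, the highest array. Acta1, skeletal actin, differed by 0.39 ± 0.11 (adjusted p = 0.075) and Myh1, another fast myosin, by 0.44 ± 0.14 (adjusted p = 0.14), both without overlap. Tnnt2, cardiac troponin T, fell by 0.23 ± 0.06 (adjusted p = 0.046), lost in 9 of 10 omissions. The mean level of the 12 skeletal markers, which include Myh3 and Myh2, did not overlap between the media. Without Myh3 and Myh2 the other 10 averaged 5.31 to 5.41 in deficient arrays and 5.09 to 5.34 in sufficient arrays, and these ranges overlapped. Among these 10, Myog had 3.43 in both media, and Myf6 2.196 in deficient and 2.138 in sufficient medium. Myod1 had 2.902 and 2.559, and Chrna1 2.337 and 2.235, all near background. Others were high in both media, with Tnnc2 at 12.62 and 12.53, Acta1 at 9.22 and 8.83, and Myh8 at 9.31 and 9.26. Whether the share of cells expressing skeletal muscle genes contributed was not tested.

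Id1, an inhibitor of helix-loop-helix factors and a direct target of BMP signalling, was at 9.36, 9.48, 9.42, 9.16 and 9.34 in deficient arrays and 8.84, 8.67, 8.78, 8.64 and 8.90 in sufficient arrays. All deficient arrays were higher, by 0.58 ± 0.10 (adjusted p = 0.0012 in limma). It was the 1 called among 24 BMP and TGF-beta pathway genes, of which 20 had a positive sign. Atoh8, a helix-loop-helix factor, differed by 0.42 ± 0.11 (adjusted p = 0.051) and Id2, a relative of Id1, by 0.46 ± 0.15 (adjusted p = 0.16).

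Tfrc, the transferrin receptor that brings iron into cells, had 8.99, 9.26, 9.30, 9.27 and 9.17 in deficient arrays and 8.47, 8.36, 8.77, 8.55 and 8.75 in sufficient arrays. The groups did not overlap, the rise was 0.62 ± 0.09 (adjusted p = 0.00011), and both of its probe sets had the same sign. It was alone among 11 iron handling genes, where Slc40a1, the iron exporter ferroportin, differed by 0.03 ± 0.10. Casp4, an inflammatory caspase, rose by 0.50 ± 0.11 (adjusted p = 0.015, or 0.052 without sufficient replicate 3), the 1 called among 12 inflammatory genes. Fgf9, a fibroblast growth factor near background, rose by 0.46 ± 0.12 (adjusted p = 0.046), and Nrp1, a receptor for semaphorins and VEGF, fell by 0.31 ± 0.08 (adjusted p = 0.046). Leaving out single arrays lost Fgf9 in 6 and Nrp1 in 7 of 10 cases.

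Several called genes belong to none of these lists. Acot2, a mitochondrial acyl-CoA thioesterase, rose by 0.52 ± 0.10 (adjusted p = 0.0036), with 8.72 to 8.84 in deficient and 8.01 to 8.41 in sufficient arrays. Maoa, the mitochondrial monoamine oxidase, rose by 0.30 ± 0.05 (adjusted p = 0.00025), with 12.57 to 12.74 in deficient and 12.30 to 12.47 in sufficient arrays. Neither gene's groups overlapped. Ifrd1, a transcriptional coregulator, rose by 0.50 ± 0.08 (adjusted p = 0.00024), Nrn1, neuritin, by 0.49 ± 0.07 (adjusted p = 0.00017) and Vsnl1, a neuronal calcium sensor, by 0.54 ± 0.13 (adjusted p = 0.035). Noct, a circadian phosphatase of NADP cofactors, rose by 0.52 ± 0.13 (adjusted p = 0.032) and Plekhh2, a cytoskeletal protein, by 0.47 ± 0.10 (adjusted p = 0.020). Vsnl1 lost its call in 8, Noct in 7 and Plekhh2 in 4 of 10 omissions of single arrays.

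Among the falls, Arhgap20l1 had 5.67, 5.29, 5.52, 5.24 and 5.70 in deficient arrays and 6.84, 6.28, 6.29, 6.54 and 6.52 in sufficient arrays. The groups were clearly apart, and it fell by 1.01 ± 0.15, or 2.02-fold (adjusted p = 0.00011 in limma). LOC100911864, without a further name, fell by 0.71 ± 0.13 (adjusted p = 0.0027) and Eepd1, a protein with an endonuclease domain, by 0.58 ± 0.13 (adjusted p = 0.022). Fam13b fell by 0.54 ± 0.09 (adjusted p = 0.0012), but its 2 probe sets disagreed in sign, and with the mean of both the fall was 0.27 and not called (adjusted p = 0.21 in limma). Cerk, ceramide kinase, fell by 0.34 ± 0.08 (adjusted p = 0.029), Llgl1, a cell polarity protein, by 0.40 ± 0.09 (adjusted p = 0.018), and Krcc1 by 0.34 ± 0.07 (adjusted p = 0.0036). Spa17 and Hoxa3l1 fell by 0.53 and 0.49, and Mtus2, a microtubule-associated protein, by 0.34. Omission of single arrays lost Cerk in 7, Eepd1 and Spa17 in 5 each, Hoxa3l1 and Mtus2 in 3 each and Llgl1 in 2 of 10 cases. Lists of 21 cholesterol, 28 respiratory chain, 23 antioxidant, 22 lysosome and autophagy, 16 lipid, 20 immediate early and 7 interferon genes held 0 called genes each. With 0.781% of all genes called, 0 is near that share for lists of these sizes.

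**Figure D3:**
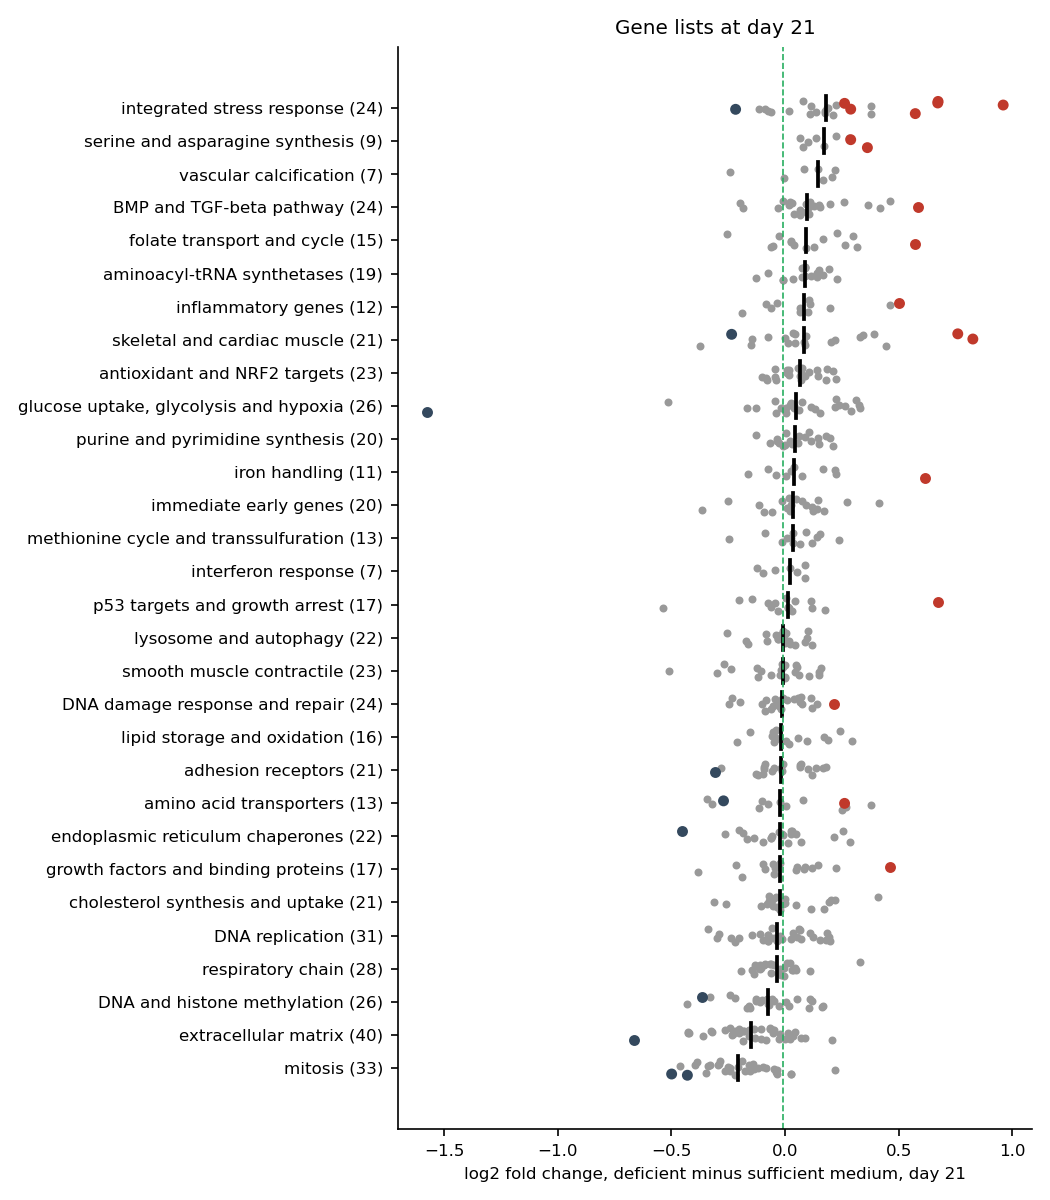
Log2 fold changes of deficient minus sufficient medium at day 21 (x axis) for the tested members of 30 gene lists, whose sizes are in brackets. Grey points did not pass the threshold, red points rose and dark points fell, black bars are list medians and the dashed line is the median of all genes at −0.01. Medians run from 0.18 for the integrated stress response to −0.21 for mitosis.

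The same contrast at the earlier days comes from other arrays. Deficient medium changed 8 genes at day 14, or 0.088% of those tested, and 0 at day 7, where 551 genes were at an unadjusted p below 0.05 in limma. Of the 8 genes at day 14, 3 were also called at day 21. Of the 71 genes of day 21, 63 had the same sign at day 14 (33 of the 37 higher and 30 of the 34 lower), or 88.7%, against 62.2% of all genes. At day 7 it was 30 of 71, or 42.3%, against 44.6%. The median difference of the 37 higher genes was −0.02 at day 7, 0.16 at day 14 and 0.44 at day 21. For the 34 lower genes it was 0.02, −0.12 and −0.36. The day 21 medians were fixed by the choice of genes and are given for scale.

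**Figure D4:**
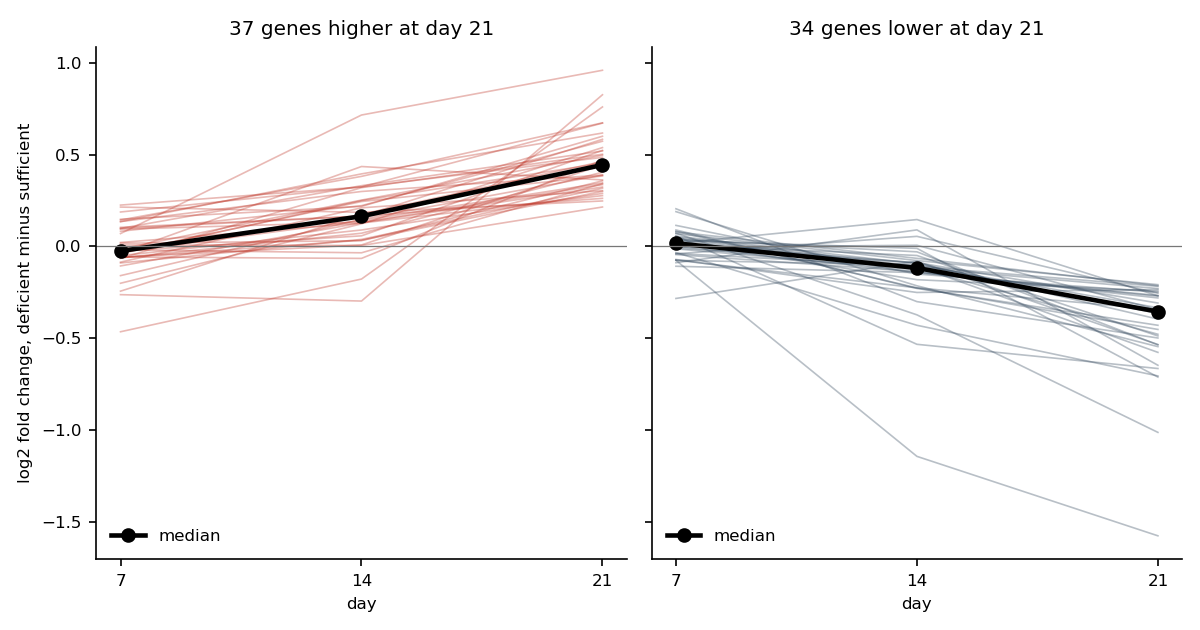
Log2 fold change of deficient minus sufficient medium at days 7, 14 and 21 (x axis) for the 37 genes higher (left) and the 34 genes lower (right) at day 21, with 1 line per gene and the median in black. The medians lie near 0 at day 7, at 0.16 and −0.12 at day 14, and at 0.44 and −0.36 at day 21, where the genes were chosen, and the lowest line on the right is Txnip.

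An interaction test asked whether deficient medium acted differently at day 21 than at day 7, and 4 genes passed, 0.044% of those tested. Txnip differed by −1.5 (adjusted p = 8e-05 in limma), from −0.08 at day 7 through −1.14 at day 14 to −1.58 at day 21. Myh3 differed by 1.22 (adjusted p = 8e-05), with −0.46 at day 7, −0.18 at day 14 and 0.76 at day 21. Maoa differed by 0.36 (adjusted p = 0.024) and Arhgap20l1 by −1.09 (adjusted p = 0.028), and these 2 did not pass without sufficient replicate 1 (adjusted p = 0.072 and 0.087). Between day 21 and day 14 only Myh3 passed, by 0.94 (adjusted p = 0.011), or 0.011% of genes. Myh3 was thus the 1 gene whose effect at day 21 differed in the test from that at both earlier days. Its day 7 level was close to background, at 3.78 in deficient arrays and 4.25 in sufficient arrays, so that difference is inexact.

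The level of the called genes followed different courses over time. Trib3 was lower at each later day in both media, at 9.60, 9.27 and 8.78 in deficient and 9.53, 8.55 and 7.82 in sufficient medium at days 7, 14 and 21. Ddit3 was higher at each later day, at 9.01, 9.52 and 9.96 in deficient and 8.86, 9.14 and 9.29 in sufficient medium. Mthfd2 stood at 9.15, 8.22 and 7.68 in deficient and 9.06, 8.0 and 7.11 in sufficient medium. Id1 was at 11.38, 11.08 and 9.35 in deficient and 11.28, 10.92 and 8.77 in sufficient medium. For Trib3, Mthfd2, Id1 and Tfrc the day 21 rise was thus a higher level within a decline over time. Between day 7 and day 14 in sufficient medium, 13 of the 37 higher genes rose and 13 fell, and 11 of the 34 lower genes rose and 12 fell. Over all genes 19.9% rose and 24.7% fell in that interval.

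**Figure D5:**
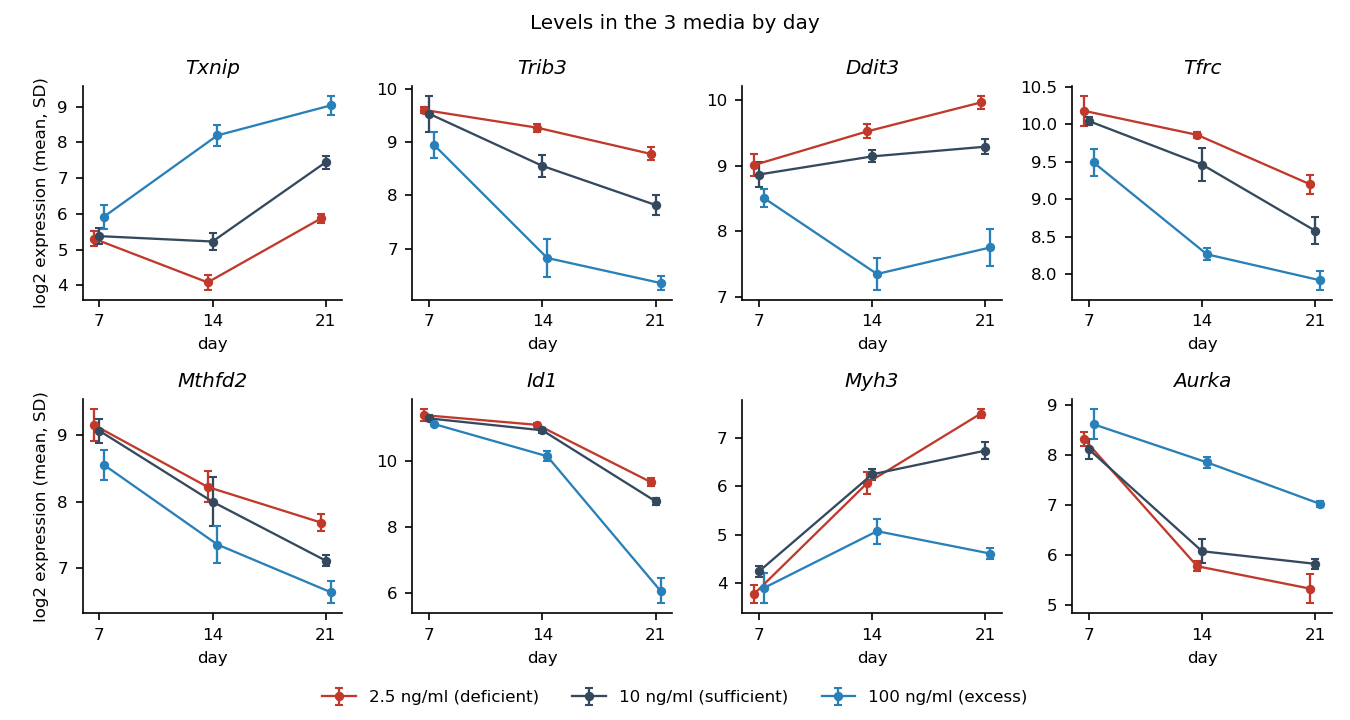
Mean log2 expression (y axis, SD as bars, n = 4 or 5 arrays) at days 7, 14 and 21 (x axis) in deficient (red), sufficient (dark) and excess medium (blue) for 8 genes. At day 21 the sufficient mean lies between the other 2 media for all 8 genes. The genes were picked with their results known, so this shared order reflects the choice. Other called genes, such as Spc24 and Psat1, were not so ordered.

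Excess medium gives the third dose at day 21, and its comparison with sufficient medium shares the 5 sufficient arrays. In it, 43.7% of genes passed, so a pass there is common. The 3′ minus 5′ actin signal was 1.761 to 2.787 in excess arrays of day 21. It was 1.542 to 1.785 in deficient and 1.564 to 1.976 in sufficient arrays. Excess replicates 3 and 5 also carry serials 55 and 56. Whether RNA quality or array series contributed to the excess levels was not tested. Across 2.5, 10 and 100 ng/ml at day 21, Txnip was at 5.87, 7.45 and 9.04, and its excess minus sufficient difference was 1.59. Trib3 was at 8.78, 7.82 and 6.35, Ddit3 at 9.96, 9.29 and 7.75, and Tfrc at 9.20, 8.58 and 7.92. Id1 was at 9.35, 8.77 and 6.06 and Myh3 at 7.50, 6.74 and 4.62. These levels were ordered by dose. Others were not. Spc24 differed from sufficient medium by 0.60 in deficient and 0.95 in excess medium, and Msh6 by 0.21 and 0.35. Psat1 differed by 0.29 and 0.02, Cerk by −0.34 and −0.03, and Arhgap20l1 by −1.01 and −0.21.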

How the data were processed

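Expression of A7r5 cells was measured on 43 arrays, and 5 deficient and 5 sufficient arrays of day 21 are compared here, grouped by their titles. The deposited log2 values were made by the authors with GCRMA. The submitters' processing notes name it and limma without versions. GCRMA subtracts background by probe sequence and normalizes by quantiles, so low values are compressed and array medians are alike (3.66 to 3.72).

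Of 31099 probe sets, 57 controls were left out, 20826 had 1 symbol in the platform annotation, 436 had several and 9780 had no entry. Entrez identifiers matched RefSeq (GRCr8) for 20758 and not for 68. Each of 14217 genes was represented by the probe set with the highest mean, and 9093 with log2 above 4 in at least 4 arrays were tested, which left out 5124. Where probe sets disagreed in sign this is stated. Of the called genes, 21 had several probe sets and 2 disagreed.

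The 9 group means were fitted in limma 3.58.1 (R 4.3.3; 34 residual and 4.12 prior degrees of freedom), two-sided, with Benjamini-Hochberg adjustment over all genes tested and a threshold of 0.05. The fit was tested on simulated data. Plots were made in matplotlib 3.10.9 with Python 3.11.15.

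Named genes are the 15 highest and 15 lowest called without overlap, called members of 37 lists, a panel of folate, stress and muscle genes, and those past the interaction tests. The members and lists were chosen with earlier results of these data known. Uncalled list members given beside these, such as Slc2a1, Kif20a and Col3a1, are outside that rule. They were chosen after their values were seen and are not counted among the named genes. Other scalings, filters, fits and array sets were tried, and the number of arrays limits the precision. No list was tested as a set.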

Additional observations from a re-analysis of the deposited data

Results flagged for a closer look

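Some single arrays stood apart from the other 4 of their group for a named gene. This was so for 7 of 120 gene and group combinations looked at, and chance gives about 1 in 20. In deficient medium, Acot2 was high in replicate 6, at 8.84 where the others were at 8.72 to 8.76. Folr1 was low in replicate 6, at 4.47 against 4.63 to 4.68 in the others, and Mtr, near background, was low in replicate 4, at 2.87 against 3.23 to 3.35. In sufficient medium, Vsnl1 was high in replicate 6, at 7.00 against 6.43 to 6.57. Psph was low in replicate 4, at 6.47 against 6.90 to 6.98. Sufficient replicate 1, the array farthest from its group, was low for Ezh2, at 8.27 against 8.46 to 8.52, and high for Acta2, at 14.28 against 13.78 to 13.86.

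The deficiency effect differed between days in an interaction test in limma. Between day 21 and day 14, Myh3 differed by 0.938. Between day 21 and day 7, Myh3 differed by 1.22, Maoa by 0.361, Txnip by -1.5 and Arhgap20l1 by -1.09. Over 29 alternative settings for the day 7 difference, Txnip and Myh3 passed in each, while Arhgap20l1 was lost in 11 and Maoa in 7. A fit with the replicate number as a block was not among these settings. It was applied to the day 21 calls only, where Myh3 lost its call (adjusted p = 0.066 in limma).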

How the results depend on the processing

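The count of 71 genes moved with the fit and with single arrays. The direction of these genes did not change in any setting that measured them. That was 67 of the 71 under a stricter filter on low values and all 71 in the others. As these genes were chosen in the same arrays, stable signs follow largely from the choice. The count was 43 with only the compared groups in the fit (28 of them among the 71). With the array series above serial 45 as a covariate it was 323. It was 122 in serials up to 45 (56 among the 71), 300 with array weights and 4 with the replicate number as a block. Leaving out single arrays gave 32 (without deficient replicate 3) to 73 (without sufficient replicate 2). It was 33 without sufficient replicate 4, 34 without deficient replicate 5, 41 without deficient replicate 6 or sufficient replicates 1 or 3, and 44 without deficient replicate 4. The 4 genes under the block were Txnip, Trib3, Ddit3 and Arhgap20l1. The deviations of samples of the same number had correlations of -0.159, -0.122, 0.082 and 0.019. The labels do not say what the number means, so these values cannot show whether such samples share a culture or batch. A setting chosen after seeing the data, without the sufficient arrays of serials 50 and 52, gave 64 genes, 47 of them among the 71.

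Of 42 named called genes, 4 passed in all 21 settings, 15 (these 4 included) in all settings other than the block, and 27 were lost in some other setting. Of 16 named genes tested and not called, 6 passed in some setting. These were Arrdc4 in 6 settings, Slc19a1, Atf4, Asns and Chac1 with array weights, and Shmt1 with the covariate. The difference from day 14 gave 2 genes with the covariate, 3 with array weights, and 1 to 2 when single arrays were left out. The difference from day 7 gave 2 genes with only the compared groups, 54 with the covariate, 8 in serials up to 45 and without serials 50 and 52, 7 with a robust variance trend, 59 with array weights, and 2 to 7 when single arrays were left out. The 63 genes of the same sign at day 14 ranged from 60 to 64 in the settings tried, which did not include the block. Of uncalled genes, Tyms turned positive with the covariate (0.0596), in serials up to 45 and without serials 50 and 52 (0.0956 in both), and ranged from -0.156 to 0.00586 when single arrays were left out. Mthfd1 was -0.0075 with array weights and ranged from -0.0168 to 0.0854, and Folr1 was -0.0194 under the block and ranged from -0.0134 to 0.0773. Causes were not tested. Array series and medium are partly confounded at day 21, and levels near the filter limit are inexact.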

Other observations

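Among the called genes outside the naming rule, chosen here after their values were seen, 2 that were higher and 3 that were lower in deficient medium are given as examples. Hilpda, a lipid droplet protein induced by hypoxia, had 9.97 ± 0.08 in deficient arrays and 9.57 ± 0.09 in sufficient arrays (SD, n = 5 each), and Bpnt1, a nucleotidase of sulfur metabolism, at 11.22 ± 0.05 and 10.91 ± 0.08. Xdh, the purine-degrading xanthine dehydrogenase, had 5.26 ± 0.21 in deficient arrays and 5.74 ± 0.26 in sufficient arrays. Mrps21, a mitochondrial ribosomal protein, was at 10.66 ± 0.11 and 10.93 ± 0.10, and Nop10, a component of small nucleolar particles, at 11.74 ± 0.06 and 11.95 ± 0.09. All 5 passed the threshold in limma.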
